A study of Mus musculus with 12 samples.

Results

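The genes described here encode the proteins with which circulating leukocytes and blood stem cells take hold of a vessel wall. They are 9 genes chosen by name from the table of raw counts: the selectins Sele and Selp, the selectin ligand Selplg, the immunoglobulin-family adhesion molecules Icam1, Vcam1 and Madcam1, and the junctional adhesion molecules F11r, Jam2 and Jam3. All 9 of the listed symbols were matched to an Ensembl identifier among the 55421 genes of the table, and 8 had enough counts to be tested among 15999 genes. RNA had been sequenced from bone marrow cells sorted as endothelial (lineage-depleted, then TER-119-, CD41-, CD45-, CD31 high and SCA-1+) from 12 mice, 1 library per mouse and 3 mice per group. Controls were naive C57BL/6J mice. Mice with hypertension were C57BL/6J given angiotensin II, according to the methods for 8 weeks by osmotic minipump. Mice with atherosclerosis carried the Apoe(tm1Unc) allele, which removes apolipoprotein E from the whole body, and had eaten a western diet for 10 weeks. Mice with MI were C57BL/6J with a permanently ligated coronary artery, taken 2 days after infarction by the labels, whereas the text of the study speaks of day 4. All mice were 20 weeks old. The atherosclerosis group therefore differed from the controls in genotype and diet together, and these cannot be told apart.

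Leukocytes leave the blood in steps. Selectins on activated endothelium and platelets bind glycans carried by the ligand PSGL-1, which lets cells roll; ICAM-1 and VCAM-1 then hold leukocyte integrins, and junctional adhesion molecules sit where neighbouring cells meet and where leukocytes pass through. In bone marrow, E-selectin and VCAM-1 are known as molecules of the vessels to which blood stem and progenitor cells home, and VCAM-1 is also made by stromal cells and macrophages, P-selectin by megakaryocytes and platelets, and PSGL-1 mainly by leukocytes.

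Sele and Icam1 were the members whose hypertension libraries all lay below all control libraries, and Selp is the other selectin, on the same chromosome, so the 250 bases before the start of these 3 genes are shown (RefSeq, GRCm38.p6, plus strand). The windows lie at chr1:164047984-164048233 for Sele, chr1:164115014-164115263 for Selp and chr9:21015690-21015939 for Icam1. Capitals mark matches on either strand to the NF-kB consensus, searched as GGRNNNYYCC, the AP-1 motif TGANTCA and the TATA box TATAAA. R stands for A or G, Y for C or T and N for any base. The motifs were chosen after these sequences had been seen. A stretch that departs from its pattern in any base stays in lower case.
Sele: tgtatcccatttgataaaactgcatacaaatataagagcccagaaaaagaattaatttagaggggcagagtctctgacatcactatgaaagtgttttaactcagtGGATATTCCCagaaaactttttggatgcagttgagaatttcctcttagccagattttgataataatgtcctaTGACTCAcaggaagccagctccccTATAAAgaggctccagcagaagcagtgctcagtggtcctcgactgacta
Selp: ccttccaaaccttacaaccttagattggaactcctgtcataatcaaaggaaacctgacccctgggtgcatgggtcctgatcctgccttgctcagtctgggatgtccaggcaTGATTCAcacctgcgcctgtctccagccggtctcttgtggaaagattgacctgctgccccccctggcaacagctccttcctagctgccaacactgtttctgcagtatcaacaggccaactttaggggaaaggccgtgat
Icam1: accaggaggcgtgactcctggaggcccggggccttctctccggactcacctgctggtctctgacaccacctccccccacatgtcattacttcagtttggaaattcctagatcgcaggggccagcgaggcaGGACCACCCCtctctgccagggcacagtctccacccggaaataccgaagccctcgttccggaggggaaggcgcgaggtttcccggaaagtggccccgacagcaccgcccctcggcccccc
The Sele window held 1 match to each of the 3 motifs, of which the NF-kB match GGATATTCCC began 145 bases before the start. The Icam1 window held the NF-kB match GGACCACCCC and the Selp window only the AP-1 match TGATTCA. Among 32851 RefSeq windows of this length, 23.2% held the NF-kB consensus, 6.75% the AP-1 motif and 12.4% the TATA box. A match describes letters and not binding. RefSeq windows were also found for Madcam1 and F11r, so that 5 of the 9 members had one.

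The libraries held 17007088 to 25136936 counts each, and 3 counts, the smallest amount taken as measured, stood for 0.116 to 0.176 CPM (counts scaled to the library's total and TMM factor). All 16 endothelial marker genes had counts in all 12 libraries, but their summed level was low, 149 to 283 CPM. Neutrophil markers summed to 33800 to 97900 CPM, erythroid markers to 10800 to 46600 CPM and megakaryocyte markers to 439 to 1920 CPM. Ptprc, which encodes the CD45 that the sort excluded, stood at a median of 579 CPM, and Itga2b, which encodes the excluded CD41, at 88.8 CPM, against 20.3 CPM for Pecam1 (CD31) and 13.6 CPM for Ly6a (SCA-1). Transcripts of other cell types were thus abundant beside the labelled endothelial ones, and fewer cells of a type and less RNA per cell cannot be told apart in any value below. Apoe was at 10.6 ± 3.81 CPM in the atherosclerosis libraries and at 781 ± 98.4 CPM in the controls (SD, n = 3).

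The members differed far more from each other than between groups. Per exon length, Selplg had the highest median over the 12 libraries, 83.6 RPKM (CPM per kilobase of exon), and Vcam1 came next at 23.0 RPKM. F11r at 3.74, Selp at 3.07 and Icam1 at 2.63 RPKM formed a middle range, followed by Sele at 0.734, Jam2 at 0.323, Jam3 at 0.225 and Madcam1 at 0.078 RPKM. The lowest Selplg library lay above the highest Vcam1 library, the lowest Vcam1 above the highest F11r, and the lowest Icam1 above the highest Sele. The other neighbours overlapped: F11r exceeded Selp in 10 of 12 libraries and Selp exceeded Icam1 in 7. Selplg alone made up 58.7% to 80.4% of the summed RPKM of the 9 genes and Vcam1 12% to 28.9%. Among all tested genes, the mean level of Selplg was above 96.0% of them and that of Sele above 25.3%.

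**Figure D1:**
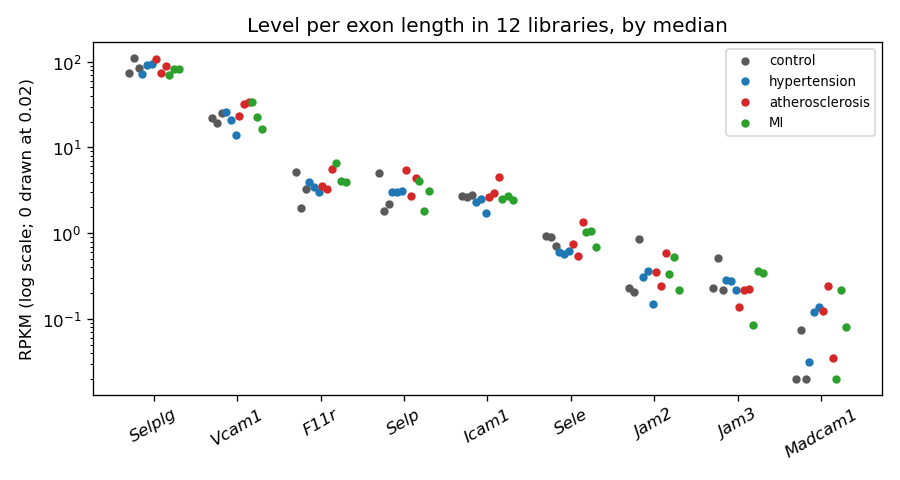
RPKM (log scale) of each member in each of the 12 libraries, coloured by group and ordered by the median, with a value of 0 drawn at 0.02. Selplg and Vcam1 stand above the other members in every library. The points of Selplg spread least, by 1.58-fold. Those of Jam2 and Jam3 spread by 5.77-fold and 5.88-fold, and those of Madcam1 run from 0 to 0.245 RPKM.

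No member passed the test in any comparison with controls (edgeR's quasi-likelihood test, Benjamini-Hochberg adjustment over 15999 genes, threshold 0.05). Over all genes the test called 0% in hypertension, 0.144% in atherosclerosis and 0% in MI. At an unadjusted p under 0.05 it reached 3.71%, 5.97% and 2.8% of all genes, and 0 of the 8 members in each comparison. DESeq2 and edgeR's likelihood-ratio test also called 0 members. In hypertension 7 of 8 members had a log2 fold change below 0, with a median of -0.204 against -0.0128 over all genes. These include F11r at -0.01 and Selplg at -0.05. Leaving out single libraries changed the sign for Selplg, Vcam1, F11r, Jam2 and Jam3 there. In atherosclerosis 6 of 8 were above 0, with a median of 0.152 against 0.0123, and in MI 4 were above and 4 below, with a median of -0.0452 against 0.000225. These comparisons share their 3 control libraries. Over all genes, 48.1% were above 0 in hypertension, 51.9% in atherosclerosis and 50% in MI.

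**Figure D2:**
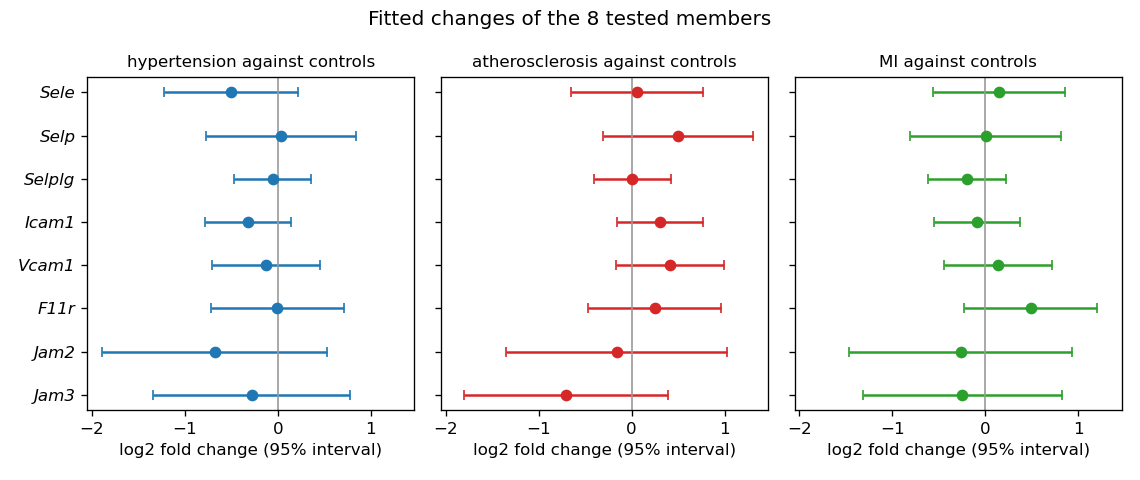
Log2 fold change of the 8 tested members in each disease group against controls, with its 95% interval from the edgeR fit. Every interval includes 0, and those of Jam2 and Jam3 are the widest.

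Sele encodes E-selectin, which cytokines induce on endothelium. Its level was 2.69, 2.65 and 2.09 CPM in the controls and 1.77, 1.66 and 1.80 CPM in hypertension, so that the groups did not overlap. Their log2 fold change was -0.50 ± 0.33 (SE, n = 3 and 3, adjusted p = 0.951, edgeR), and the 95% interval runs from 0.429-fold to 1.16-fold. The exact two-sided permutation test gave p = 0.1, the smallest that 3 against 3 libraries allow. In atherosclerosis Sele was at 2.18, 1.59 and 3.92 CPM, on both sides of the controls, and without the highest of these libraries (replicate 4) the log2 fold change of 0.05 became -0.39. In MI it was at 3.04, 3.12 and 2.03 CPM, with a log2 fold change of 0.14 ± 0.33 (adjusted p = 1, edgeR) that ran from 0.03 to 0.32 when single libraries were left out, without MI replicate 3 and MI replicate 4 respectively. Each of these values rests on only 27 to 77 counts.

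Selp encodes P-selectin, stored in the granules of platelets and endothelium. It was at 21.9, 8.07 and 9.62 CPM in the controls, a wider spread than in any disease group relative to the mean. The hypertension libraries held 13.5, 13.4 and 13.6 CPM, within the control range. In atherosclerosis the values were 24.4, 12 and 19.5 CPM, and the log2 fold change was 0.50 ± 0.37 (adjusted p = 0.893, edgeR). Single libraries moved this value both ways: it was 1.07 without control replicate 2 (adjusted p = 0.563, edgeR), 0.25 without control replicate 3, 0.32 without control replicate 4 and 0.27 without atherosclerosis replicate 2. In MI Selp was at 17.8, 7.99 and 13.8 CPM, overlapping the controls.

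Selplg encodes PSGL-1, the ligand that leukocytes present to the selectins, and varied least among the tested members over the 12 libraries, by 1.58-fold from lowest to highest. It was at 317, 467 and 362 CPM in the controls and at 308, 390 and 406 CPM in hypertension. The atherosclerosis libraries held 455, 314 and 382 CPM and those after MI 296, 353 and 349 CPM. All groups overlapped. The 95% interval of the atherosclerosis fold change ran from 0.754-fold to 1.34-fold and that of MI from 0.654-fold to 1.16-fold.

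Icam1 encodes ICAM-1, which the beta2 integrins of leukocytes bind. The controls lay close together at 11.8, 11.5 and 12.3 CPM. The hypertension libraries, at 10.1, 10.9 and 7.51 CPM, all lay below them, with a log2 fold change of -0.32 ± 0.22 (adjusted p = 0.951, edgeR) that was -0.175 without hypertension replicate 4. In atherosclerosis Icam1 was at 11.4, 12.8 and 19.7 CPM, and its log2 fold change of 0.30 became 0.03 without replicate 4 and 0.47 without replicate 2. In MI it was at 10.9, 11.7 and 10.7 CPM, against the controls a log2 fold change of -0.09 ± 0.22 (adjusted p = 1, edgeR).

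Sele and Icam1 were 2 of 8 tested members without overlap between hypertension and controls, beside 16.8% of all tested genes. In atherosclerosis and in MI 0 of 8 members were without overlap, beside 9.51% and 8.86% of all genes. The neutrophil and monocyte marker sums of the hypertension libraries were also below all controls, at 37000 to 53800 CPM against 58300 to 80400 CPM for neutrophil markers and at 1370 to 1590 CPM against 1600 to 2200 CPM for monocyte markers. Their part in the lower Sele and Icam1 values was not tested.

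Vcam1 encodes VCAM-1, which holds cells through the integrin VLA-4. It was at 196, 173 and 223 CPM in the controls and at 229, 187 and 125 CPM in hypertension. The atherosclerosis libraries held 208, 283 and 297 CPM, of which the lowest lay within the control range. The log2 fold change was 0.41 ± 0.27 (adjusted p = 0.873, edgeR), with a 95% interval from 0.89-fold to 1.99-fold. In MI the values were 303, 201 and 145 CPM, on both sides of the controls. Macrophage markers summed to 721 to 933 CPM in atherosclerosis and 457 to 557 CPM in the controls, without overlap. The plasmacytoid dendritic cell, plasma cell and blood stem and progenitor marker sums were also above all controls in atherosclerosis, at 631 to 672 against 418 to 456 CPM, 1390 to 1720 against 937 to 1260 CPM and 184 to 206 against 139 to 142 CPM. The stem and progenitor sum was above all controls in hypertension (143 to 145 CPM) and MI (150 to 157 CPM) too. In MI the B cell and plasmacytoid dendritic cell sums were below all controls, at 251 to 551 against 582 to 847 CPM and 229 to 393 against 418 to 456 CPM. The part of these markers in the members' values was not tested. Each sum adds the CPM of its genes, so that its highest genes weigh most. Jchain and Xbp1 had medians of 727 and 546 CPM over the 12 libraries, beside 1320 CPM for the plasma cell sum. Tcf4 and Irf7 had medians of 121 and 100 CPM, beside 419 CPM for the plasmacytoid dendritic cell sum.

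Madcam1 encodes MAdCAM-1, the address molecule of gut vessels. It had 0 to 6 counts in each library, too few to be tested. The controls had 0, 2 and 0 counts, hypertension 1, 4 and 4, atherosclerosis 4, 6 and 1, and MI 0, 6 and 2. A difference was not detectable at this depth.

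F11r encodes JAM-A, found at endothelial and epithelial junctions and on platelets. It was at 13.8, 5.31 and 8.69 CPM in the controls and 10.5, 9.11 and 8.06 CPM in hypertension. In atherosclerosis it was at 9.38, 8.63 and 15.1 CPM and in MI at 17.6, 10.7 and 10.7 CPM. The MI fold change was 0.49 ± 0.33 on the log2 scale (adjusted p = 1, edgeR). Leaving out control replicate 2 gave 0.89, and leaving out either control replicate 3 or MI replicate 2 gave 0.21. The control range reached above the lower MI libraries.

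Jam2 encodes JAM-B, made by endothelium. One control library, replicate 4, held 5.20 CPM, and the other controls 1.40 and 1.25 CPM. Hypertension libraries held 1.86, 2.19 and 0.901 CPM, atherosclerosis libraries 2.13, 1.47 and 3.51 CPM and MI libraries 2.04, 3.23 and 1.33 CPM. The log2 fold changes of -0.68, -0.16 and -0.27 in these comparisons turned to 0.33, 0.85 and 0.74 without control replicate 4, so that no direction can be given.

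Jam3 encodes JAM-C, a partner of JAM-B. It had 5 to 30 counts per library. The controls were at 0.729, 1.62 and 0.698 CPM and the atherosclerosis libraries at 0.445, 0.705 and 0.713 CPM, a log2 fold change of -0.71 ± 0.51 (adjusted p = 0.889, edgeR) that was -0.21 without control replicate 3. Hypertension libraries held 0.908, 0.876 and 0.701 CPM and MI libraries 0.276, 1.16 and 1.10 CPM. An antisense gene, Gm48796, overlaps 1159 bases of Jam3 exons and had 337 counts in all against 197 for Jam3. According to the methods the libraries were made with a directional kit. Which strand column the counts were taken from is not given in the sources used here, so reads of this pair may not be told apart. Antisense genes also overlap exons of Selp, Icam1 and Vcam1.

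**Figure D3:**
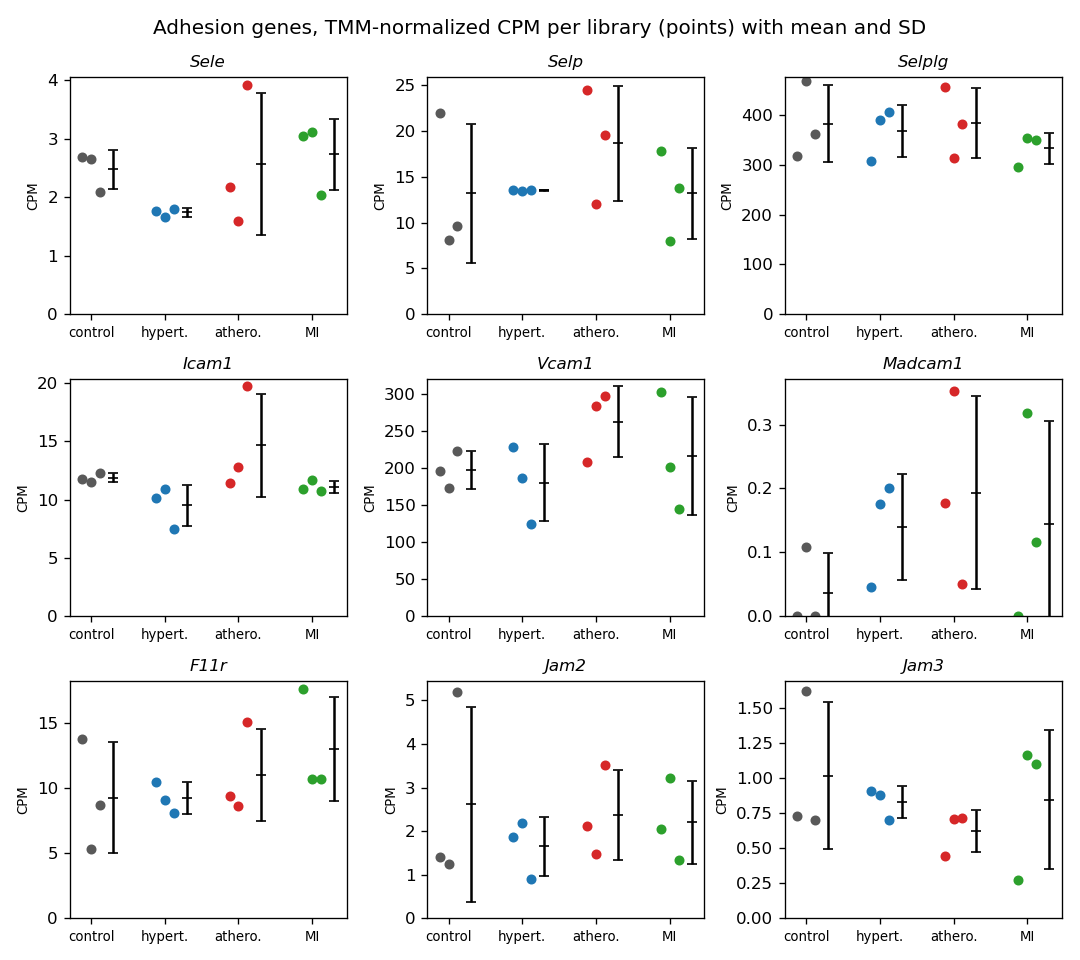
TMM-normalized CPM of the 9 members, 1 point per library, with the group mean and SD beside the points and axes from 0 (error bars are cut at 0). Hypertension points lie below all control points for Sele and Icam1, and a single control point stands high for Selp, Jam2 and Jam3.

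Between disease groups, 0 members passed the test, beside 0.0625% of all genes for atherosclerosis against hypertension, 0% for MI against hypertension and 0.269% for MI against atherosclerosis. At an unadjusted p under 0.05, 1 of 8 members was reached in the first of these and 0 in the others, beside 5.94%, 8.41% and 12.7% of all genes. That member was Icam1, whose log2 fold change of atherosclerosis over hypertension was 0.62 ± 0.22 (adjusted p = 0.637, edgeR; exact permutation test p = 0.1). All 3 of its atherosclerosis libraries lay above all 3 hypertension libraries, as 1 of 8 members, beside 10.9% of all genes without overlap. Sele and F11r lay higher in all MI libraries than in all hypertension libraries, 2 of 8 members beside 19.6% of all genes, with log2 fold changes of 0.64 ± 0.33 and 0.49 ± 0.33 (adjusted p = 0.609 and 0.66, edgeR). Between MI and atherosclerosis 0 of 8 were without overlap, beside 13.7% of all genes.

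The other genes of leukocyte adhesion gave few differences. Of 89 genes listed in 6 groups, 82 were tested and 0 were called in any comparison. At an unadjusted p under 0.05 there were 3 of 82 in hypertension, all lower (3.66%), 9 in atherosclerosis, 7 higher and 2 lower (11%), and 2 in MI, both lower (2.44%), beside the shares of all genes given above. The median log2 fold change in atherosclerosis was 0.11 for the 17 tested endothelial adhesion genes, 0.20 for the 14 leukocyte genes, 0.04 for the 15 genes of ligand synthesis and 0.10 for the 21 genes of induction. For the 8 sheddases and proteases it was -0.31 and for the 7 junction partners -0.30. In the other comparisons all 6 medians were below 0, from -0.21 (junction partners) to -0.02 (endothelial adhesion genes) in hypertension and from -0.17 (induction) to -0.05 (endothelial adhesion genes) in MI.

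Icam2, which encodes an integrin ligand present on resting endothelium, was at 33.1 ± 2.12 CPM in the controls and 21.8 ± 4.22 CPM in hypertension (SD, n = 3), without overlap, a log2 fold change of -0.61 ± 0.24 (adjusted p = 0.951, edgeR). In MI Icam2 was also below all controls, at 23.1 ± 6.21 CPM (log2 fold change -0.52 ± 0.24). In atherosclerosis Icam2 overlapped the controls (-0.30 ± 0.23). Of all genes, 16.8% were without overlap in hypertension and 8.86% in MI. Pvr, an adhesion receptor of the nectin-like family, was at 5.73 ± 0.566 CPM in atherosclerosis and 3.39 ± 0.234 CPM in the controls (adjusted p = 0.556, edgeR). Genotype and diet differ together in this comparison, and the part of the Apoe(tm1Unc) allele in the Pvr value was not tested. Among leukocyte integrin genes, Itgad had a log2 fold change of 1.11 ± 0.27 and Itga9 of 1.13 ± 0.31 in atherosclerosis (adjusted p = 0.29 and 0.397, edgeR). Tnfaip3, an inhibitor of NF-kB signalling that NF-kB itself induces, came nearest the threshold, at 50.2 ± 13 CPM in atherosclerosis against 27.1 ± 3.9 CPM, without overlap (log2 fold change 0.89 ± 0.21, adjusted p = 0.205, edgeR). DESeq2 called Tnfaip3 and Itgad, and the likelihood-ratio test called Tnfaip3. St3gal6, a sialyltransferase of selectin ligand synthesis, had a log2 fold change of -0.38 ± 0.17 in MI (adjusted p = 1, edgeR). In the other groups St3gal6 went the other way, with 0.36 ± 0.17 in hypertension and 0.24 ± 0.17 in atherosclerosis (adjusted p = 0.951 and 0.889, edgeR). C1galt1c1, the chaperone of core 1 synthesis, had a log2 fold change of -0.36 ± 0.20 in hypertension (adjusted p = 0.951, edgeR). Lta, a cytokine gene of the induction list, had -1.34 ± 0.62 in MI (adjusted p = 1, edgeR). Its MI libraries lay at 0.0579 to 0.318 CPM, around the 3 counts taken as measured, and the controls at 0.543 to 0.596 CPM. The log2 fold change of Lta was also below 0 in hypertension (-0.94 ± 0.58) and atherosclerosis (-0.83 ± 0.59). Of the granule protease genes, Prtn3 stood at -0.86 ± 0.36 in hypertension and -0.62 ± 0.36 in atherosclerosis (adjusted p = 0.951 and 0.868, edgeR). Elane, which is also one of the neutrophil markers, stood at -0.16 ± 0.27 in hypertension and -0.59 ± 0.27 in atherosclerosis (adjusted p = 0.962 and 0.831, edgeR). In MI both were above 0, at 0.27 ± 0.36 for Prtn3 and 0.31 ± 0.27 for Elane. Of the junction partners, Afdn, which encodes the scaffold protein afadin, had -0.34 ± 0.18 in atherosclerosis (adjusted p = 0.86, edgeR).

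Across the 12 libraries, members moved with different cell type markers. Over 104 pairs of a member and a marker list, 2 had an adjusted p under 0.05 for Pearson's r and 2 for Spearman's rho, of which 1 pair was in both (permutation test, 100000 resamples, Benjamini-Hochberg over all pairs), and no member belongs to a marker list. Selp followed the megakaryocyte markers, with r = 0.92 (permutation p = 3e-05, adjusted 0.00312) and Spearman's rho = 0.90 (permutation p = 0.00016, adjusted 0.0166). After the group means were subtracted r was 0.92, and without the 2 libraries farthest from the median marker sum, control replicates 2 and 3, it was 0.90 (permutation p = 0.0003). The sum was 439 to 1920 CPM in the controls, and the control library with the highest Selp value also had the highest sum. Jam2 followed the endothelial markers, with r = 0.84 (permutation p = 0.00083, adjusted 0.0432) and rho = 0.83 (permutation p = 0.00151, adjusted 0.0523). Without atherosclerosis replicate 4 and control replicate 4 its r was 0.69 (permutation p = 0.0258). The endothelial sum ran from 149 to 283 CPM. Its genes with the widest ranges were Plvap, at 15.3 to 84.7 CPM, and Vwf, at 18.7 to 74.2 CPM.

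**Figure D4:**
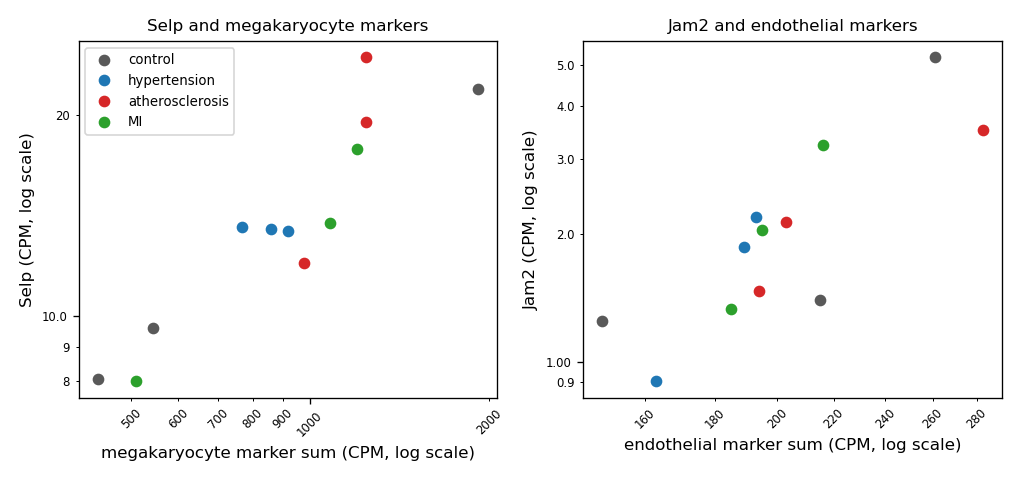
Selp against the summed megakaryocyte markers (left) and Jam2 against the summed endothelial markers (right), in CPM on log axes, 1 point per library coloured by group. Selp increases with its marker sum over the whole range (r = 0.92), and control replicate 4 is the highest Jam2 point.

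Vcam1 was nearest to the macrophage markers and passed by rank only, with rho = 0.87 (permutation p = 0.00056, adjusted 0.0291) and r = 0.77 (permutation p = 0.00384, adjusted 0.0998). Its r was 0.86 after the group means were subtracted and 0.63 without atherosclerosis replicates 3 and 4 (permutation p = 0.0485). Stromal markers came close to this, with r = 0.72, and 0.79 after the group means were subtracted. Without atherosclerosis replicate 2 and hypertension replicate 4 the stromal r was 0.62. The stromal sum had a median of 266 CPM, and Cxcl12 alone a median of 175 CPM. Erythroid markers had r = 0.64, and 0.85 without atherosclerosis replicates 2 and 3. B cell markers had r = -0.5, and -0.85 after the group means were subtracted. None of these other lists passed the adjustment. For the other members no relation passed the adjustment. The highest coefficient of Icam1 was with endothelial markers (r = 0.73, permutation test, adjusted p = 0.168, and r = 0.47 without the 2 farthest libraries). Selplg had its largest coefficients with erythroid and neutrophil markers, both negative (r = -0.77 and -0.69), and F11r with megakaryocyte markers (r = 0.69). Sele had its largest with monocyte markers (r = 0.59) and Jam3 with megakaryocyte markers (r = -0.57).

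**Figure D5:**
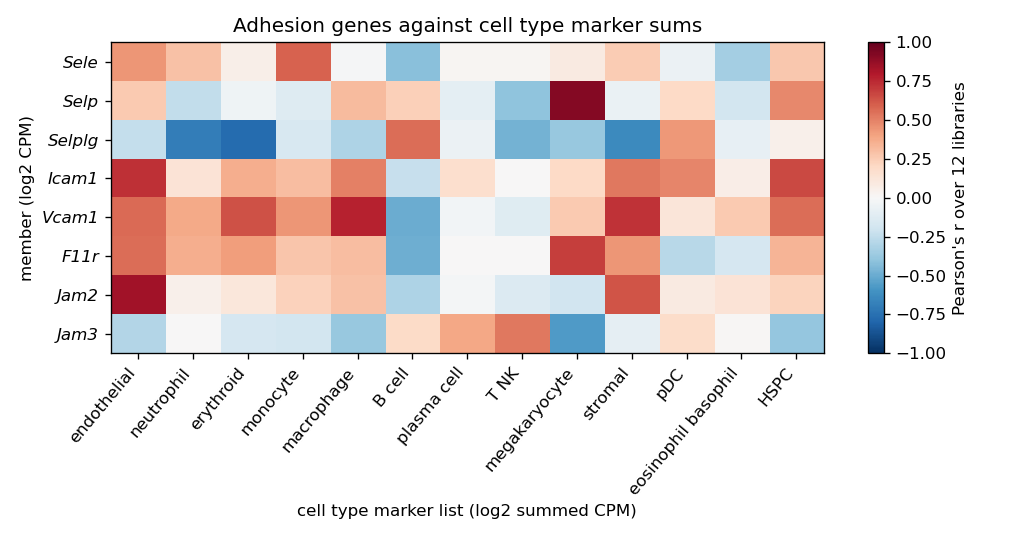
Pearson's r over 12 libraries between log2 CPM of each tested member (rows) and the log2 summed CPM of each cell type marker list (columns). The deepest red cells are Selp with megakaryocyte and Jam2 with endothelial markers.

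Among themselves the members did not vary as one group. Over 28 pairs, r of log2 CPM ran from -0.67 for Selp and Jam3 to 0.68 for Icam1 and Vcam1, with a median of 0.16. Sele and Selp, both on chromosome 1, had r = 0.14, and Selplg with Selp had r = -0.11. These values describe 12 libraries that share their preparation and scaling.

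The genes whose pattern over the 12 libraries was most like a member were sought among 13427 genes with a mean of at least 1 CPM. For Selp they included Slamf1 (r = 0.965) and Mrvi1 (r = 0.955). For Jam2 they were Fbln2 (r = 0.951), Ptprb, the endothelial phosphatase VE-PTP (r = 0.932), and Fam171a1 (r = 0.931). For Icam1 they were Filip1l, Naa25 and Zfp128 (r = 0.942, 0.941 and 0.916). Vcam1 was most like Tmem86a, Sqstm1 and Lgmn, which encodes a lysosomal protease (r = 0.918, 0.918 and 0.898). For Selplg the nearest were Nrros, Gpr35 and Myadm (r = 0.928, 0.919 and 0.918), and for F11r Tmem158, 2510009E07Rik and Adamtsl5 (r = 0.918, 0.906 and 0.902). Sele and Jam3 had lower maxima, with Mfsd13a, Pwwp2b and Tnfrsf22 for Sele (r = 0.867, 0.842 and 0.84) and Haus8, Ctr9 and Kdm4c for Jam3 (r = 0.877, 0.877 and 0.874). With 12 libraries and this many genes searched, such values describe likeness alone.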

How the data were processed

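The authors made directional libraries of polyadenylated RNA. They aligned single-end 50-base reads to GRCm38.p6 with STAR 2.7.3a and deposited raw counts per Ensembl gene. The strand column taken is not given in the sources used here. Symbols, positions and exon lengths came from GENCODE M21, in which 55240 of 55421 genes were found. Here edgeR 4.0.16 kept 15999 genes (filterByExpr), scaled with TMM and fitted 1 coefficient per group to the 12 libraries (glmQLFit, glmQLFTest). P-values were two-sided and adjusted by Benjamini-Hochberg over all tested genes. Standard errors were taken from the F statistic, as the size of the log2 fold change over its square root. Each library is 1 mouse. Alternatives included edgeR's likelihood-ratio test, DESeq2, RLE size factors, other low-count filters and leaving out each library. The code was tested on simulated data with known folds, for the fitted folds and the false calls. That test set no bar for power, because a first requirement on the share of changed genes called was not met and was dropped.

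The 9 members, the gene lists, the marker lists and the tests were chosen with earlier results of these data known. Named are the members, the sort genes, from each pathway list the 2 tested genes with the smallest p in any comparison with controls, and the 3 genes most correlated with each member. Whether same-numbered libraries were handled together is not stated in the sources used here, and the quasi-likelihood fit did not pair them. A few genes and motifs that these rules would name are not reported here.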

Additional observations from a re-analysis of the deposited data

How the results depend on the processing

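No member was called against controls under any alternative run, nor between disease groups under those run there (both other tests, RLE size factors, both other filters and the replicate block; single libraries were not left out and pairs of groups not fitted alone). The smallest adjusted p of a member against controls was 0.514. Of 309 alternative values of the 24 member fold changes, 278 kept their direction and their side of the threshold and 31 changed sign, in 14 fold changes. The cause was not tested. Depth limits Sele, Jam2 and Jam3, with 5 to 134 counts per library, and 3 libraries per group limit all members.

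The number of genes called in atherosclerosis, 23 in the quasi-likelihood test, was 81 with the likelihood-ratio test, 75 with DESeq2, 432 with no low-count filter, 4 with only the 2 groups compared, and 2 to 34 when single libraries were left out. In hypertension and MI, 0 in the quasi-likelihood test, it was 170 and 130 with no low-count filter, and in MI 1 gene, Igkv8-27, with the likelihood-ratio test, DESeq2 or only the 2 groups compared. Of the pathway genes, 0 in the quasi-likelihood test, those called in atherosclerosis were 1 with the likelihood-ratio test, 2 with DESeq2, 4 with no low-count filter (Klf4, Vwf, Tnfaip3 and Itga9) and 0 to 1 (Tnfaip3) when single libraries were left out; in hypertension it was 1 (Prtn3) with no low-count filter. Without TMM factors 1 member, Icam1, did not overlap with the controls in MI.

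With the replicate number as a block (replicate block), 7 genes and 0 members were called in atherosclerosis, 0 genes in hypertension and MI, and F11r in hypertension turned from -0.01 to 0.07. Same-numbered libraries had correlated deviations of -0.172 to 0.285, and not every library was closest to its own number.

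F11r in hypertension was also 0.00927 with no low-count filter, and Selp in MI, 0.0028 in the quasi-likelihood fit, was -0.00651 with DESeq2 and -0.0142 with no low-count filter. When single libraries were left out, the log2 fold changes in hypertension that changed sign ran from -0.222 to 0.607 for Selp, -0.172 to 0.115 for Selplg, -0.335 to 0.0797 for Vcam1, -0.285 to 0.394 for F11r, -1.01 to 0.329 for Jam2 and -0.494 to 0.215 for Jam3. In atherosclerosis they ran from -0.388 to 0.297 for Sele, -0.12 to 0.173 for Selplg, -0.0446 to 0.649 for F11r and -0.558 to 0.85 for Jam2. In MI they ran from -0.276 to 0.574 for Selp, -0.19 to 0.35 for Vcam1, -0.651 to 0.739 for Jam2 and -0.556 to 0.243 for Jam3.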
